A study of Arabidopsis thaliana with 20 samples.

Results

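Small RNAs (sRNAs) of *Arabidopsis* seedlings given 12 h of white light (W12 h) were compared with those of seedlings kept in the dark (W0 h). The 6 libraries of these time points, 3 per group, were taken from a series of 20 samples, of which 18 are sRNA libraries of 6 time points and the others are degradome libraries. All W12 h and W0 h columns of the deposited table were used, and every one of its 4520 rows was placed in a class by its name, which gave 207 miRNAs, 58 phasiRNAs and 4255 siRNAs. Both groups were wild-type Col-0, a standard laboratory accession, grown for 4 d at 22 °C in the dark after a cold treatment and 1 h of light to start germination. W12 h seedlings then had 12 h of continuous white light at 100 µE, and W0 h seedlings had none. The aerial part of about 5000 seedlings was pooled for each sample. No genotype other than wild type and no added agent entered this comparison, and W12 h seedlings were also 12 h older than W0 h seedlings. Libraries of replicates 1 and 2 were built with a TruSeq kit, whereas those of replicate 3 were built with the Small RNA v1.5 kit, so that replicate 3 and its kit cannot be told apart. Since the table holds only sRNAs, the tissue could not be checked against marker mRNAs. In such bulk samples, fewer cells of a type and less RNA per cell cannot be told apart.

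Plant miRNAs are cut from hairpin transcripts by DICER-LIKE1 as a duplex of a 5p and a 3p arm, of which usually one is loaded into ARGONAUTE1 and guides cleavage of nearly complementary mRNAs. PhasiRNAs are made in register from a transcript that an sRNA has cut, such as the *TAS* RNAs cut under the guidance of miR173 or miR390. In seedlings that leave the dark, several miRNA families act on regulators of leaf growth, polarity and the juvenile phase, among them the SPL factors (miR156 and miR157), the class III HD-ZIP factors (miR165 and miR166) and the GROWTH-REGULATING FACTORs (miR396).

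The mature sequences below are a selection of the miRNAs that passed the threshold on at least one of the scales used below, shown because several results turn on which arm or family member a sequence is. They are given 5′ to 3′ as listed in the study's supplementary tables, with the seed (bases 2 to 8) in capitals. The first 5 were higher at W12 h and the others were lower. Among the 35 miRNAs that passed the threshold on either scale there were 26 distinct sequences and 26 distinct seeds, so that miRNAs with a common seed here also shared the whole sequence. Such groups are written on 1 line.
miR163: uUGAAGAGgacuuggaacuucgau
miR157c-3p: gCUCUCUAuacuucugucacc
miR156a-3p: gCUCACUGcucuuucugucaga
miR5642a: uCUCGCGCuuguacggcuuu
miR8175: gAUCCCCGgcaacggcgcca
miR390b-3p: cGCUAUCCauccugaguucc
miR390a-5p and miR390b-5p: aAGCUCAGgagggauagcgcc
miR396a-3p: gUUCAAUAaagcugugggaag
miR166e-5p: gGAAUGUUgucuggcacgagg
miR166a-5p and miR166b-5p: gGACUGUUgucuggcucgagg
miR395a, miR395d and miR395e: cUGAAGUGuuugggggaacuc
miR408-5p: aCAGGGAAcaagcagagcaug
miR403-3p: uUAGAUUCacgcacaaacucg
miR156a-5p to miR156f-5p: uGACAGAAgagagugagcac

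Mapped reads per library, inferred from the step between siRNA values, numbered 18202597, 18822788 and 17579785 at W12 h (replicates 1, 2 and 3). At W0 h they numbered 18146072, 18407313 and 17639306. The deposited values are RPM, that is, reads scaled to a common library size. siRNA values were taken as scaled to all mapped reads of a library, and miRNA and phasiRNA values to its mapped reads of 20–24 nt. The Methods state this scale for miRNAs only. Both totals, and the numbers that follow from them, were inferred from the deposited values. One read of that size was worth 0.0715, 0.0679 and 0.0607 RPM at W12 h and 0.0669, 0.0646 and 0.0581 RPM at W0 h. Reads of 20–24 nt took 76.8%, 78.2% and 93.7% of the mapped reads at W12 h and 82.3%, 84.1% and 97.6% at W0 h. Replicate 3, the only one built with the v1.5 kit, stood apart from replicates 1 and 2. Pearson's r of miRNA levels (log2 RPM, 207 miRNAs) was 0.994 between replicates 1 and 2 at W12 h and 0.993 at W0 h, whereas between replicates 1 and 3 it was 0.688 at W12 h and 0.661 at W0 h. The points of these correlations are miRNAs of the same libraries and do not count as replicates. Comparisons were therefore made within replicate. Means over the 6 libraries, which pool the kits, serve only to rank sRNAs or arms by level and to describe that level.

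All miRNAs together took a smaller part of the 20–24 nt reads at W12 h in each replicate. Their share was 27.2%, 30.7% and 50.9% at W12 h, against 42.5%, 45.3% and 58.1% at W0 h in replicates 1, 2 and 3. The 95% Wilson intervals of these shares reached at most 0.025 percentage points to either side, and they cover counting error only. No W12 h library overlapped its own W0 h library, but W12 h of replicate 3 lay above W0 h of replicates 1 and 2. Summed over the class, the log2 ratio of W12 h to W0 h was -0.64, -0.56 and -0.19.

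In replicates 1 and 2 most of this difference lay in 1 family, and in replicate 3 in another. The miR166 family, which targets class III HD-ZIP mRNAs, had 76.3%, 77.5% and 4.24% of the miRNA RPM at W12 h and 75.5%, 78.4% and 4.78% at W0 h. The miR156 family, which targets *SPL* mRNAs, had 5.87%, 5.57% and 77.1% at W12 h and 6.88%, 5.89% and 79.5% at W0 h. miR166 thus led the TruSeq libraries and miR156 the v1.5 libraries at both time points. miR166 made up 74.1% and 80.4% of the summed difference in replicates 1 and 2, and miR156 made up 96.9% of it in replicate 3. Within the miRNA total, the shares of both families differed little between W12 h and W0 h of a replicate.

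**Figure D1:**
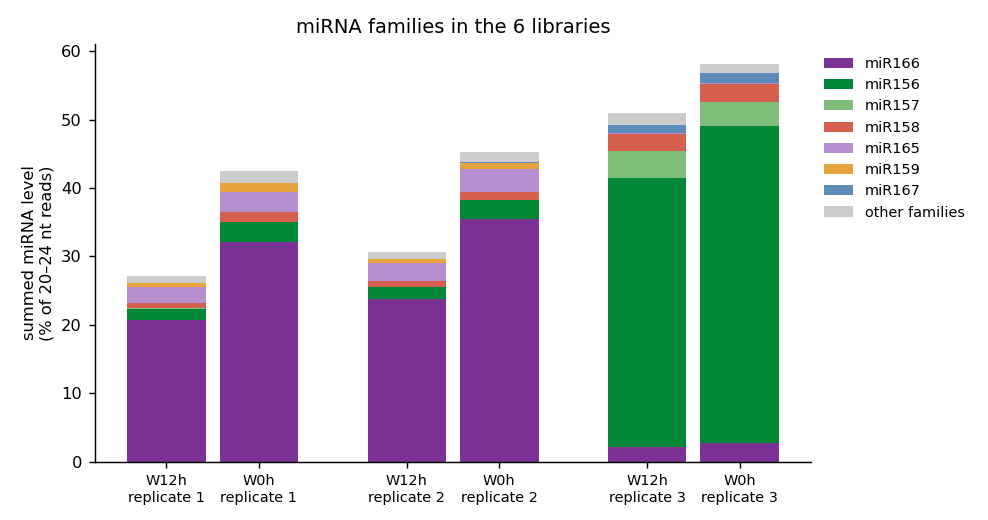
Summed level of the miRNA families in the 6 libraries, as a percentage of the mapped 20–24 nt reads, with W12 h left of W0 h for each replicate. The W12 h bars reach 27.2%, 30.7% and 50.9% and the W0 h bars 42.5%, 45.3% and 58.1%, with miR166 the largest part in replicates 1 and 2 and miR156 in replicate 3.

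Lower levels at W12 h were not limited to the abundant families. The median log2 ratio of the 207 miRNAs was -0.52, -0.37 and -0.12 in replicates 1, 2 and 3, and 147, 140 and 116 of them were lower at W12 h. For the 58 phasiRNAs the medians were -0.90, -0.72 and -0.14. Of these phasiRNAs, 4, 13 and 1 were listed at 0 at W12 h, and none at W0 h. Some W0 h values equal exactly 1 read, such as phasiR_51, with 82, 1 and 154 reads in replicates 1, 2 and 3. Whether such values were counted reads or stand in for 0 was not tested. The replicate 2 median of -0.72 is the value of phasiRNAs such as phasiR_44, with 0 reads at W12 h and 1 at W0 h. For the 2855 siRNAs listed above 0 at all time points up to W12 h the medians were -0.74, -0.60 and 0.00. The size of the shift thus followed the replicate in every class, and in replicate 3 the siRNAs had no shift, with 1357 lower and 1498 higher. Because all classes are shares of a sequenced library, each result was computed on a pair of scales. It was first taken as deposited, and then after each library was shifted so that its median log2 miRNA ratio to W0 h of the same replicate was 0, which is called centred.

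**Figure D2:**
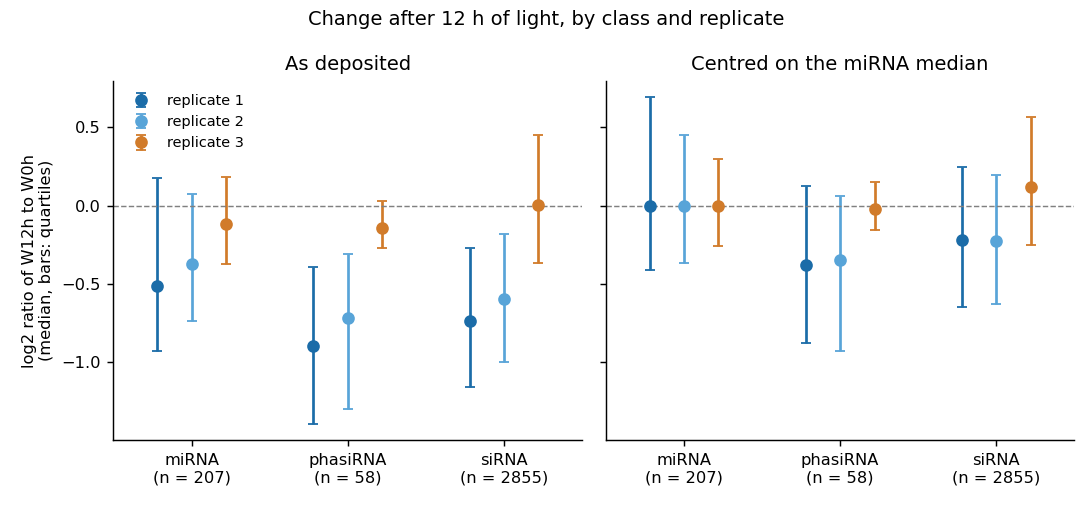
Median log2 ratio of W12 h to W0 h in each replicate for miRNAs, phasiRNAs and siRNAs, with bars for the quartiles over sRNAs, as deposited (left) and after centring on the miRNA median (right). As deposited, the miRNA medians were -0.52, -0.37 and -0.12, and centring moved the other classes by the same amounts. siRNA medians are on another read scale than those of the other classes.

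Of the 207 miRNAs, 29 (14%) differed between W12 h and W0 h as deposited at an adjusted p under 0.05 in limma, 3 higher (1.45%) and 26 lower (12.6%). All 29 moved the same way in each of the 3 replicates. They belong to 18 families and hold 20 distinct sequences. When each distinct sequence was fitted as 1 item, 12 of 155 passed, 2 higher and 10 lower. Of the miRNAs named below, 8 had a weaker result in that fit, miR5642a among them. The median change over all 207 was -0.34 on the log2 scale, and 188 stayed within 2-fold. After centring, 20 miRNAs (9.66%) passed, 9 higher (4.35%) and 11 lower (5.31%). All 3 that were higher as deposited and 11 of the 26 that were lower passed on both scales. The balance of the calls thus depended on the scale, with 26 of 29 lower as deposited and 11 of 20 lower after centring.

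Replicate 3 differed from the TruSeq replicates in how far the miRNAs moved. In a fit without replicate 3, which leaves the TruSeq libraries, 82 miRNAs (39.6%) passed, 13 higher and 69 lower, and all 29 were among them. In the v1.5 replicate, which has no replicate of its own, 6 of these 13 were higher as well and 49 of these 69 were lower. The 26 miRNAs that fell had a median log2 ratio of -1.25, -1.25 and -0.53 in replicates 1, 2 and 3, and for 23 of them the difference was smallest in replicate 3. Without replicate 1 or without replicate 2, which leaves 1 library of each kit per time point, only miR163 passed on either scale. In a fit on the 6 libraries alone only miR163 passed, and without the replicate as a term 0 of the 207 passed, on either scale.

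**Figure D3:**
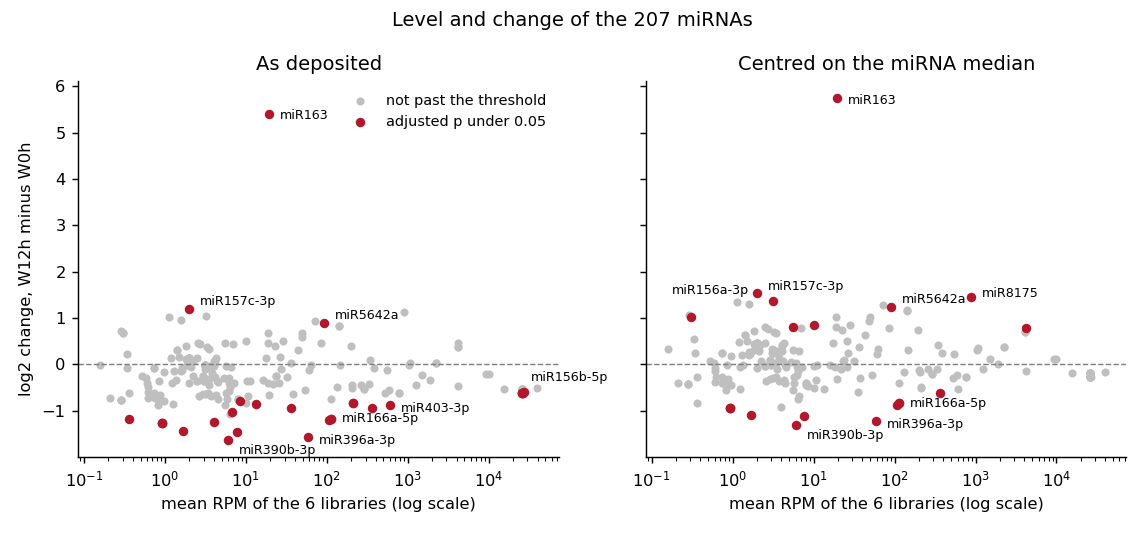
Log2 change of the 207 miRNAs (W12 h minus W0 h, limma) against their mean RPM over the 6 libraries on a log axis, as deposited (left) and centred (right), with miRNAs past the threshold in red. As deposited 26 red points lie below 0 and 3 above, and after centring 11 lie below and 9 above.

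miR163, a miRNA of 24 nt that targets mRNAs of SABATH-family methyltransferases, had the largest change. It comes from chromosome 1, 24884359 to 24884382 on the plus strand, inside *MIR163* (positions here and below are on RefSeq's copy of TAIR10). It had 54.5, 51.4 and 8.02 RPM at W12 h, against 1.54, 1.03 and 0.06 RPM at W0 h. Every W12 h library lay above every W0 h library. These values correspond to 762, 756 and 132 reads at W12 h and 23, 16 and 1 at W0 h, or to a 35.4-fold, 49.7-fold and 138-fold higher level at W12 h. The exact 95% intervals were 23.4 to 56.2, 30.4 to 87.4 and 24.4 to 5492, and cover counting error only. The log2 change on the scale of RPM plus 0.1 was 5.41 (standard error 0.32, adjusted p = 2.99e-11), and 5.75 after centring (adjusted p = 1.18e-10).

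Among the miRNAs of the SPL module, 1 of the miR157 family rose and 6 of the miR156 family fell as deposited. miR157c-3p, the less abundant arm of the *MIR157c* hairpin (chromosome 3, 6244527 to 6244547, minus strand), had 4.65, 2.92 and 0.97 RPM at W12 h and 1.61, 1.36 and 0.41 RPM at W0 h. It rose in each replicate, although W12 h of replicate 3 lay below W0 h of replicates 1 and 2 (log2 change 1.20, standard error 0.35, adjusted p = 0.0325, centred 1.53 with adjusted p = 0.0139). miR157c-5p, the arm that pairs with *SPL* mRNAs, had 157, 173 and 12951 RPM at W12 h and 122, 96.6 and 11648 RPM at W0 h. It was higher in all replicates but passed only after centring (centred log2 change 0.79, adjusted p = 0.0373, as deposited 0.45 with adjusted p = 0.194). None of the other 5 miR157 miRNAs passed. By contrast, miR156b-5p (chromosome 4, 15074945 to 15074964, plus strand) had 2928, 3123 and 66694 RPM at W12 h, against 5500, 4895 and 78419 RPM at W0 h. It fell in each replicate as deposited (log2 change -0.60, standard error 0.19, adjusted p = 0.0432), as did miR156a-5p, c-5p, d-5p, e and f-5p, which have the same sequence (-0.61 each). After centring none of them passed (adjusted p = 0.192 each). The opposite arm, miR156a-3p (chromosome 2, 10676470 to 10676491, minus strand), had 5.37, 4.99 and 2.55 RPM at W12 h and 1.24, 2.07 and 2.85 RPM at W0 h. Higher in replicates 1 and 2 and lower in replicate 3, it passed only after centring (centred log2 change 1.37, adjusted p = 0.0373). Over the 21 miRNAs of the SPL module, 1 rose and 6 fell as deposited, with a median of 0.09, and 3 rose and 0 fell after centring, against 14% and 9.66% of all miRNAs past the threshold in either direction. The 6 that fell are 1 sequence.

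miR5642a (chromosome 3, 14197116 to 14197135, plus strand) was the third miRNA to rise on both scales. It had 205, 160 and 1.85 RPM at W12 h and 104, 75.7 and 1.13 RPM at W0 h (log2 change 0.90, standard error 0.28, adjusted p = 0.0432). With each distinct sequence as 1 item its adjusted p was 0.0556. miR5642b, which has the same sequence, was listed at 35.1, 26.5 and 1.85 RPM at W12 h and at 29.5, 18.9 and 1.13 RPM at W0 h, and did not pass (log2 change 0.47, adjusted p = 0.254). The 2 entries had equal values in replicate 3 and unequal values in replicates 1 and 2, and how the reads of this sequence came to be listed unequally was not tested.

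Both arms of the *MIR390b* hairpin fell. miR390 is loaded into ARGONAUTE7 and guides the cleavage of *TAS3* RNA, from which the tasiRNAs against *ARF3* and *ARF4* are made. miR390b-3p (chromosome 5, 23637034 to 23637053, plus strand) had 2.00, 4.28 and 1.94 RPM at W12 h, against 12.5, 11.7 and 3.63 RPM at W0 h. It had the largest fall of all miRNAs (log2 change -1.63, standard error 0.33, adjusted p = 0.00265) and passed after centring too (-1.30, adjusted p = 0.0127). The guide miR390a-5p had 67.6, 67.3 and 337 RPM at W12 h and 125, 131 and 531 RPM at W0 h. It was lower within each replicate (log2 change -0.83, standard error 0.23, adjusted p = 0.0276), with -0.50 and an adjusted p of 0.0647 after centring. miR390b-5p has the same sequence and nearly the same values. Neither miR173-5p nor miR173-3p, which with miR390 form the list of tasiRNA triggers, passed on either scale.

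Within the HD-ZIP III module, the 5p arms of 3 *MIR166* hairpins fell on both scales. miR166a-5p (chromosome 2, 19176128 to 19176148, plus strand) had 86.0, 82.4 and 28.2 RPM at W12 h, against 213, 221 and 48.1 RPM at W0 h (log2 change -1.17, standard error 0.24, adjusted p = 0.00265, centred -0.83 with adjusted p = 0.0139). miR166b-5p has this sequence too and was listed at the same values. miR166e-5p was at 3.17, 2.83 and 5.89 RPM at W12 h and at 6.75, 9.41 and 18 RPM at W0 h, and its W12 h values all lay below its W0 h values (log2 change -1.45, standard error 0.29, adjusted p = 0.00265). The 3p arms, which target *PHABULOSA* and *REVOLUTA*, were far more abundant and did not pass as deposited. miR166a-3p, the miRNA with the highest mean RPM, had 43043, 48004 and 3683 RPM at W12 h and 66647, 69735 and 4663 RPM at W0 h (log2 change -0.50, standard error 0.18, adjusted p = 0.0579). The next most abundant after the miR156 guides, miR166c and miR166d, had changes of -0.53 each (adjusted p = 0.0553). After centring these 3 were at -0.17 to -0.19, with adjusted p of at least 0.483. None of the 3 miR165 miRNAs passed.

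A similar difference between arms was seen for miR396a and miR408. miR396a-3p (chromosome 2, 4142331 to 4142351, minus strand) had 29.0, 25.9 and 31.8 RPM at W12 h, against 116, 86.4 and 61.2 RPM at W0 h. All W12 h values lay below all W0 h values, and the level at W12 h hardly differed between the replicates (log2 change -1.56, standard error 0.30, adjusted p = 0.00265, centred -1.22 with adjusted p = 0.0127). Its partner miR396a-5p, the guide against *GRF* mRNAs, had 1434, 1459 and 37.8 RPM at W12 h and 2412, 2089 and 39.4 RPM at W0 h, and did not pass (log2 change -0.44, adjusted p = 0.228). miR408-5p (chromosome 2, 19319866 to 19319886, plus strand) had 5.80, 9.44 and 253 RPM at W12 h, against 16.6, 31.9 and 324 RPM at W0 h (log2 change -1.20, standard error 0.31, adjusted p = 0.0163, centred -0.87 with adjusted p = 0.0373). miR408-3p, which targets plantacyanin and laccase mRNAs, had 696, 780 and 10.6 RPM at W12 h and 843, 931 and 9.29 RPM at W0 h (log2 change -0.12, adjusted p = 0.824). The arm that was more abundant thus differed between replicate 3 and the TruSeq replicates for miR408.

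Both arms were listed for 42 hairpins, or 38 distinct pairs of sequences. The less abundant arm, taken by the mean log2 RPM over the 6 libraries of both kits, passed as deposited in 8 hairpins and the more abundant arm in 11, and in *MIR390b* alone both did. Of the 11, 4 were the 1 sequence of miR156 (*MIR156a*, *b*, *c* and *f*), and the arm counted as less abundant for *MIR408* was the more abundant one in replicate 3. The median change was -0.38 for the less abundant and -0.53 for the more abundant arms. In 10 hairpins the less abundant arm had the lower ratio of the pair in all 3 replicates, and in 10 it had the higher ratio. A fall of the less abundant arm beyond its partner, as in *MIR166a*, *MIR166b*, *MIR166e*, *MIR396a* and *MIR408*, was therefore not the common pattern over the 42 pairs.

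**Figure D4:**
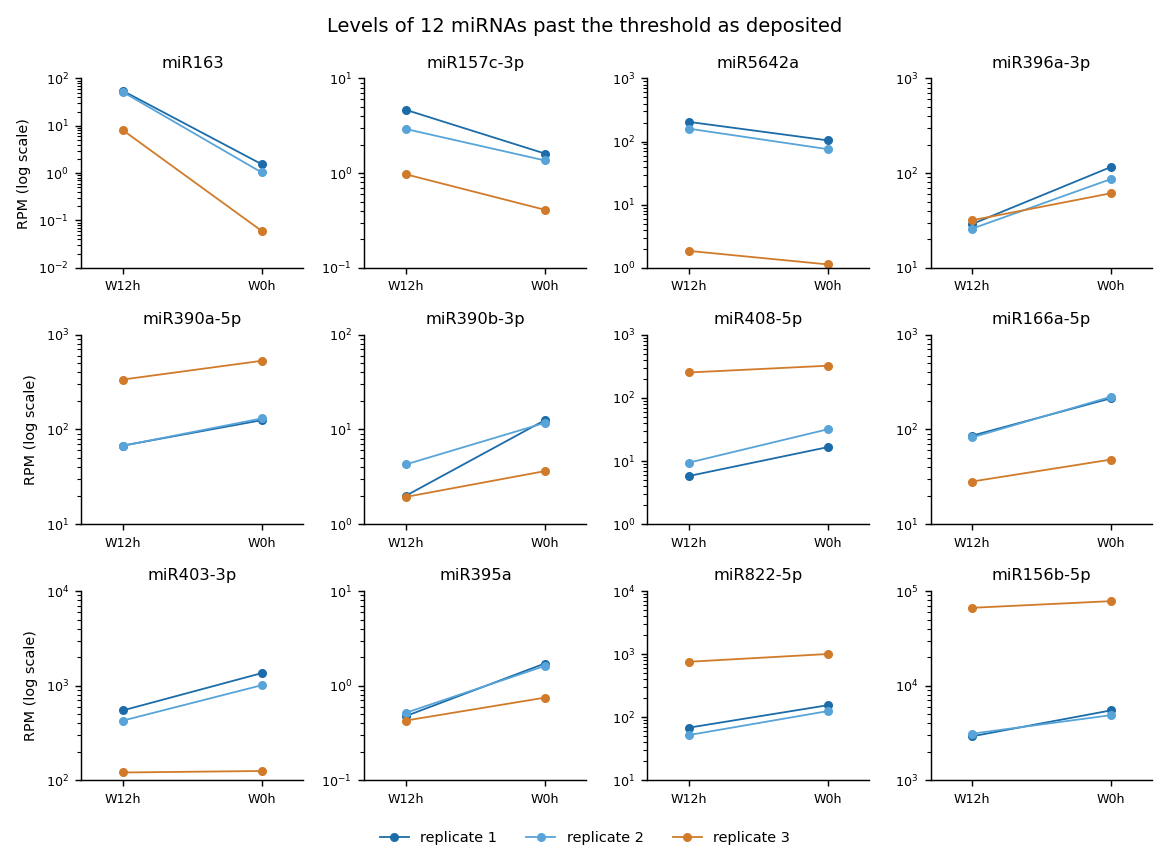
Levels of 12 miRNAs past the threshold as deposited, in RPM on a log axis, with W12 h left of W0 h and a line joining the libraries of 1 replicate. miR163, miR157c-3p and miR5642a were higher at W12 h in all 3 replicates and the other 9 were lower, with a small difference for miR403-3p in replicate 3 (122 and 126 RPM).

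Of the miRNAs that act on the silencing machinery, miR403-3p, which targets *AGO2*, fell as deposited. It had 550, 430 and 122 RPM at W12 h, against 1362, 1015 and 126 RPM at W0 h, so that the W12 h value was well below W0 h with the TruSeq kit and close to it in replicate 3 (log2 change -0.87, standard error 0.27, adjusted p = 0.0432, centred -0.53 with adjusted p = 0.0931). miR403-5p had 0.86, 1.02 and 0.18 RPM at W12 h and 1.07, 1.68 and 0.46 RPM at W0 h (log2 change -0.65, adjusted p = 0.218). miR162a-3p, the guide against *DCL1*, had 265, 305 and 85.3 RPM at W12 h and 473, 536 and 82.4 RPM at W0 h (log2 change -0.53, adjusted p = 0.246), and miR162b-3p had nearly the same values. The other arm, miR162a-5p, fell (log2 change -1.02, adjusted p = 0.0432), with 1.32, 1.32 and 13 RPM at W12 h and 2.71, 4.43 and 17.2 RPM at W0 h. miR162b-5p changed by -0.61 (adjusted p = 0.167), with 0.25, 0.31 and 14.9 RPM at W12 h and 0.37, 0.81 and 17.9 RPM at W0 h.

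The guide of miR168, which targets *AGO1*, differed in direction between replicate 3 and the TruSeq replicates. miR168a-5p had 322, 330 and 3161 RPM at W12 h and 371, 480 and 1790 RPM at W0 h, which is lower in replicates 1 and 2 and higher in replicate 3 (log2 change 0.02, standard error 0.33, adjusted p = 0.979). miR168b-5p, with the same sequence, had 277, 293 and 3145 RPM at W12 h and 332, 444 and 1782 RPM at W0 h (log2 change -0.01, adjusted p = 0.985). miR168a-3p had 293, 722 and 95 RPM at W12 h and 301, 781 and 102 RPM at W0 h (log2 change -0.08, adjusted p = 0.894). miR168b-3p had 4.44, 4.55 and 0.82 RPM at W12 h and 9.91, 6.46 and 0.52 RPM at W0 h (log2 change -0.36, adjusted p = 0.492). Of the 10 miRNAs in this group, 2 fell as deposited and 0 passed after centring, against 14% and 9.66% of all miRNAs.

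The nutrient families held some of the least abundant miRNAs that passed. miR395, which targets ATP sulfurylases and the sulfate transporter SULTR2;1, is listed under 6 names and 2 sequences. miR395a (chromosome 1, 9363206 to 9363226, minus strand), miR395d and miR395e were each listed at 0.48, 0.52 and 0.43 RPM at W12 h, against 1.72, 1.62 and 0.75 RPM at W0 h. All W12 h values lay below all W0 h values (log2 change -1.27, standard error 0.30, adjusted p = 0.00876, centred -0.93 with adjusted p = 0.0373). The other 3 names, with a second sequence, had a change of -0.76 each (adjusted p = 0.107). miR399b, which targets *PHO2*, had 8.03, 8.29 and 2.19 RPM at W12 h and 16.8, 12.1 and 3.86 RPM at W0 h (log2 change -0.80, adjusted p = 0.0432), and did not pass after centring (adjusted p = 0.192). miR399c-3p, which has the same sequence, did not pass as deposited (log2 change -0.74, adjusted p = 0.0579). miR827 did not pass (log2 change 0.68, adjusted p = 0.285).

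The remaining families that fell as deposited had 1 member past the threshold each. miR822-5p, which targets DC1-domain mRNAs, had 68.8, 52.5 and 761 RPM at W12 h and 156, 126 and 1010 RPM at W0 h, and passed on both scales (log2 change -0.95, adjusted p = 0.0227, centred -0.61 with adjusted p = 0.0373). miR5012 also passed on both, at 0.79, 0.88 and 0.36 RPM at W12 h and 4.08, 3.62 and 0.41 RPM at W0 h (log2 change -1.44, adjusted p = 0.0151). For miR5012 the difference lay in the TruSeq replicates.

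The other 4 passed only as deposited. miR846-3p, which targets jacalin lectin mRNAs, had 22.5, 24.6 and 22.7 RPM at W12 h and 71.3, 47.0 and 26.5 RPM at W0 h (log2 change -0.94, adjusted p = 0.0432). miR171b-5p, from a family that targets the *HAM* GRAS factors, had 5.37, 6.79 and 18.4 RPM at W12 h and 15.5, 12.3 and 21.4 RPM at W0 h (log2 change -0.86, adjusted p = 0.0432). The W12 h libraries of these miRNAs lay below their own W0 h libraries, by the smallest margin in replicate 3. miR5024-3p was at 3.51, 2.92 and 0.43 RPM at W12 h and at 8.10, 8.01 and 1.05 RPM at W0 h (log2 change -1.24, adjusted p = 0.0276). miR5646, at 0.07, 0.20 and 0.30 RPM at W12 h and 0.40, 0.45 and 0.75 RPM at W0 h, was listed at 1 to 13 reads per library (log2 change -1.17, adjusted p = 0.0325).

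After centring, 6 miRNAs were higher that had not passed before, among them miR157c-5p and miR156a-3p. The most abundant of the rest was miR8175 (chromosome 2, 3740938 to 3740957, plus strand), with 383, 342 and 3329 RPM at W12 h and 232, 216 and 831 RPM at W0 h. It was higher in every replicate and most so in replicate 3 (log2 change 1.13, standard error 0.40, adjusted p = 0.0553, centred 1.46 with adjusted p = 0.0373). Its sequence ends in CCA, the letters added to the 3′ end of tRNAs. Without them it matched 24 places of the genome, of which 22 lay in tRNA genes, the first of these a tRNA-Asp gene. Reads of this sequence can therefore come from tRNA-Asp as well as from the annotated hairpin.

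The other 3 had low levels. miR825 had 5.29, 5.77 and 8.08 RPM at W12 h and 4.95, 3.10 and 5.98 RPM at W0 h (centred log2 change 0.80, adjusted p = 0.0371). miR833b had 0.50, 0.27 and 0.43 RPM at W12 h and 0.20, 0.19 and 0.23 RPM at W0 h (centred 1.01, adjusted p = 0.0373). miR841b-5p, at 8.01, 22.3 and 0.55 RPM at W12 h and 6.63, 22.4 and 0.17 RPM at W0 h, was higher in replicates 1 and 3 and about equal in replicate 2 (centred 0.85, adjusted p = 0.0373).

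Other families known for roles in seedling growth had no member past the threshold on either scale. These were the 12 miRNAs of the auxin pathway (miR160, miR167 and miR393, which target *ARF* and *TIR1/AFB* mRNAs), with a median log2 change of -0.17, and the 13 of miR169 (NF-YA subunits), with -0.02. They also included 6 of miR159 and miR319 (*MYB* and *TCP* mRNAs), with -0.33, and 6 of miR158, miR161 and miR400 (pentatricopeptide repeat mRNAs), with -0.24. The 3 listed miRNAs of miR164 (*NAC* mRNAs) had a median of 0.60, from -0.61 to 0.69. The median over all 207 was -0.34, and 14% of them passed. Of 7 miRNAs from families whose level has been linked to the light-signalling factor HY5, 2 fell as deposited (miR408-5p and miR156d-5p). Over all miRNAs 12.6% fell. After centring 1 of the 7 fell, miR408-5p, where 5.31% of all miRNAs did. miR156d-5p has the same sequence as miR156a-5p, b-5p, c-5p, e and f-5p, so its fall cannot be placed on miR156d. The other members of the 7, which include miR858a at 0.68 (adjusted p = 0.285), did not pass.

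None of the 58 phasiRNAs passed in limma as deposited (0%) or centred (0%), and edgeR on recovered reads also called 0. In simulated data the limma fit recovered 1 of 7 phasiRNAs with a log2 change of 1 either way. These 0 calls therefore do not show absence of change. At an unadjusted p under 0.05 there were 14, all lower at W12 h, and 5 after centring. The 58 phasiRNAs hold 46 distinct sequences, so these counts include copies. For example, phasiR_20, phasiR_22, phasiR_28 and phasiR_33, all among the 14, have 1 sequence. The median log2 change was -0.57 as deposited and -0.23 after centring, and 32 phasiRNAs were lower in all 3 replicates and 1 was higher in all 3. Some of the 32, such as phasiR_46, had 0 reads at W12 h and 1 at W0 h in replicate 2. Whether that 1 was a counted read was not tested. The summed level of all phasiRNAs was 243, 205 and 10856 RPM at W12 h, against 570, 378 and 11220 RPM at W0 h. In this sum and those below, a sequence under several names counts once per name, at its full value each time. In a fit without replicate 3, 4 passed as deposited and 3 after centring, all lower.

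The median log2 change was -0.53 for *TAS1*, -0.42 for *TAS2*, -0.38 for *TAS3* and -0.67 for the pentatricopeptide repeat genes. The 26 phasiRNAs of the *TAS1* loci, which are cut under miR173, summed to 135, 92.0 and 8357 RPM at W12 h and to 315, 178 and 8419 RPM at W0 h. The 9 of *TAS2*, also cut under miR173, summed to 36.2, 31.0 and 383 RPM at W12 h and to 94.6, 54.7 and 422 RPM at W0 h. The 21 placed in pentatricopeptide repeat genes, a group of 10 distinct sequences, summed to 67.5, 82.3 and 1992 RPM at W12 h and to 160, 140 and 2259 RPM at W0 h, and 20 of them were lower in all 3 replicates. Their sums thus count the reads of repeated sequences several times. In each of these groups W12 h was below W0 h of the same replicate, by 1.22 to 1.39 on the log2 scale in replicate 1 and by 0.01 to 0.18 in replicate 3. The lowest adjusted p in a group was 0.157 as deposited and 0.289 after centring.

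The levels of the phasiRNA with the highest mean over the 6 libraries at each locus follow, a mean that rests mostly on replicate 3. phasiR_53 of *TAS1A* was listed at 0, 0 and 5731 RPM at W12 h and at 19.8, 15 and 5635 RPM at W0 h, and the standard error of its log2 change was 2.28 (adjusted p = 0.204). phasiR_44 of *TAS1C* was listed at 3.08, 0 and 360 RPM at W12 h and at 3.88, 0.0646 and 471 RPM at W0 h. In replicates 1 and 2 the siR850 sequence was far higher at this locus, with 57.0, 47.0 and 1.34 RPM at W12 h and 118.9, 80.4 and 0.871 RPM at W0 h (adjusted p = 0.591). phasiR_52 of *TAS2*, the highest of its locus in all 6 libraries, had 18.7, 17.4 and 202 RPM at W12 h and 55.6, 35.5 and 284 RPM at W0 h (adjusted p = 0.696). phasiR_53 was thus listed lower at W12 h in replicates 1 and 2 only, and phasiR_52 in all 3 replicates, and neither passed. Whether the 0 values of phasiR_53 stand for absence of reads was not tested. phasiR_57 of *TAS3*, the locus cut under miR390, was listed at 4.01, 0 and 97.2 RPM at W12 h and at 0.0669, 5.62 and 91.8 RPM at W0 h, and it changed sign between replicates 1 and 2. The 0.0669 RPM equals 1 read, and whether it was a counted read was not tested. *TAS1B* was represented by the siR255 sequence, which also matches *TAS1A* and *TAS1C*, with 1.5, 1.83 and 63.3 RPM at W12 h and 1.61, 2.20 and 104 RPM at W0 h. In replicates 1 and 2 phasiR_1 was the higher one at *TAS1B*, with 24.0, 11.8 and 2.06 RPM at W12 h and 70.9, 30.3 and 1.51 RPM at W0 h. Among the pentatricopeptide repeat genes, phasiR_24 of AT1G62910 had 1.65, 1.70 and 217 RPM at W12 h and 3.15, 2.13 and 262 RPM at W0 h (log2 change -0.49, adjusted p = 0.352). phasiR_27 of AT1G62914 had 1.5, 1.09 and 209 RPM at W12 h and 3.95, 4.2 and 233 RPM at W0 h (log2 change -1.12, adjusted p = 0.157), and its sequence matched 8 places. All 3 replicates of both were lower at W12 h. phasiR_21 of AT1G63070 was listed at 0.0715, 0 and 19.2 RPM at W12 h and at 0.335, 0.452 and 26.7 RPM at W0 h, and phasiR_32 of AT1G63130 at 0, 1.16 and 3.95 RPM at W12 h and at 0.0669, 2.20 and 4.18 RPM at W0 h.

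For the siRNAs, 153 of the 2855 tested (5.36%) passed as deposited, 41 higher (1.44%) and 112 lower (3.92%). After centring, 70 passed (2.45%), 65 higher (2.28%) and 5 lower (0.175%), and 46 passed on both scales. The balance of calls turned with the scale, as the median log2 change of all tested siRNAs was -0.45 as deposited and -0.12 after centring. In 149 of the 153 the direction was shared by the 3 replicates. Those that rose had a median level of 14.8 RPM over the 6 libraries, those that fell 1.63 RPM, and all tested siRNAs 1.09 RPM. Their log2 changes ran from -1.69 to 3.46. Leaving out replicate 3 gave 937 calls, leaving out replicate 1 gave 6 and leaving out replicate 2 gave 1.

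A sequence was at hand for 628 of the 4255 siRNAs, of which 454 were tested. Of these 454, 8 rose and 21 fell as deposited, and 17 were higher and 0 lower after centring. The groups described next were formed by sequence after these values were seen, so their counts are a description and were not tested. They are shown because most of the calls with a sequence fall into them.
SRNA11153156: ccgatgtcgtccagcggttaggat
SRNA11153148: ccgatgtcgtccagcggttagga
SRNA11153147: ccgatgtcgtccagcggttagg
SRNA12022397: cgatgtcgtccagcggttaggat
SRNA20955720: tccgatgtcgtccagcggttagga
SRNA22803624: tggaaccctgaacagactgc
The first 5 are parts of the 5′ end of 1 kind of tRNA-Glu, and the last is part of the 16S rRNA of the plastid. They are given as DNA, 5′ to 3′.

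Next to the plastid siRNA described below, the largest rises among siRNAs with a sequence belonged to 4 siRNAs of tRNA-Glu. SRNA11153156 had 205, 208 and 4.72 RPM at W12 h, against 16.8, 13.3 and 1.19 RPM at W0 h (log2 change 3.15, standard error 0.37, adjusted p = 0.000154). Its sequence matched 7 places, 6 of them in tRNA genes, the first of which is AT1G09110 (chromosome 1, 2939418 to 2939441, plus strand). It was higher in each replicate, and in replicate 3 the level at W12 h was below that of replicates 1 and 2 at W0 h. Without replicate 2 its adjusted p was 0.0626. SRNA11153148, which ends 1 base earlier, had 22.8, 24.9 and 0.683 RPM at W12 h and 2.70, 1.41 and 0.397 RPM at W0 h (log2 change 2.58, adjusted p = 0.0154). SRNA11153147 had 1.70, 1.49 and 3.36 RPM at W12 h and 0.165, 0.163 and 1.59 RPM at W0 h (log2 change 2.13, adjusted p = 0.00792). SRNA12022397, which starts 1 base later, had 6.32, 5.79 and 0.398 RPM at W12 h and 1.16, 0.869 and 0.0567 RPM at W0 h (log2 change 2.21, adjusted p = 0.00792).

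These 4 start at base 2 or 3 of the tRNA. Of the 17 siRNAs that start at base 1 none passed (median log2 change 0.28, from -0.35 to 0.96), and 15 of them come from other tRNA-Glu genes. SRNA20955720 is one of them and differs from SRNA11153148 only by the first base. It had 18.1, 19 and 2.10 RPM at W12 h and 11.6, 12.4 and 0.737 RPM at W0 h (log2 change 0.89, adjusted p = 0.0944). Its log2 ratio was 0.64, 0.61 and 1.40 in replicates 1, 2 and 3, against 3.03, 4.04 and 0.66 for SRNA11153148, so that the order of the pair in replicates 1 and 2 was turned in replicate 3. The 13 siRNAs that start further inside tRNA-Glu genes had a median of -0.43, from -0.86 to 1.17, and none passed. In replicate 3 the ratios of the 4 siRNAs at base 2 or 3, from 0.66 to 1.90, lay within the range of those at base 1, from 0.33 to 2.32.

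SRNA22803624 is part of the plastid 16S rRNA, the RNA of the small ribosomal subunit of chloroplasts, and lies at 102101 to 102120 of the plastid genome on the plus strand and once more in the other copy of this gene. It had 7.09, 6.96 and 28.3 RPM at W12 h, against 0.386, 0.652 and 2.89 RPM at W0 h, and every W12 h library lay above every W0 h library. This was the largest change of the tested siRNAs (log2 change 3.46, standard error 0.35, adjusted p = 4.77e-05) and passed without each replicate in turn. It was the single siRNA of the plastid rRNA among those with a sequence.

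siRNAs with 16 nt or more in common with a miRNA were grouped by its family. Of 73 related to miR156, 11 fell and 0 rose as deposited, with a median log2 change of -0.55, where 3.92% of all tested siRNAs fell. After centring 0 of the 73 passed (median -0.22). Of 18 related to miR157, 3 rose and 0 fell on either scale, with a median of 0.38 as deposited, where 1.44% of all tested siRNAs rose. An example is SRNA24346254, the miR157c-5p sequence with 1 more base, which had 29.7, 34.9 and 120 RPM at W12 h and 20.6, 14.9 and 60.5 RPM at W0 h (log2 change 0.91, adjusted p = 0.0353, centred 1.25 with adjusted p = 0.00142). These siRNAs are variants of the same molecules and give no independent support to the miRNA values. Some of the miR156 relatives that fell, such as SRNA22211645, had no exact match in the genome. SRNA25156325, related to miR159, matched 2 places, both in miRNA genes and the first in *MIR159b*. It had 388, 418 and 1.65 RPM at W12 h and 145, 86.6 and 0.680 RPM at W0 h, and passed only after centring (centred log2 change 1.95, adjusted p = 0.0355). The summed miR159 family went the other way in replicates 1 and 2 and the same way in replicate 3. It had 6126, 6388 and 176 RPM at W12 h and 12905, 9075 and 132 RPM at W0 h.

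**Figure D5:**
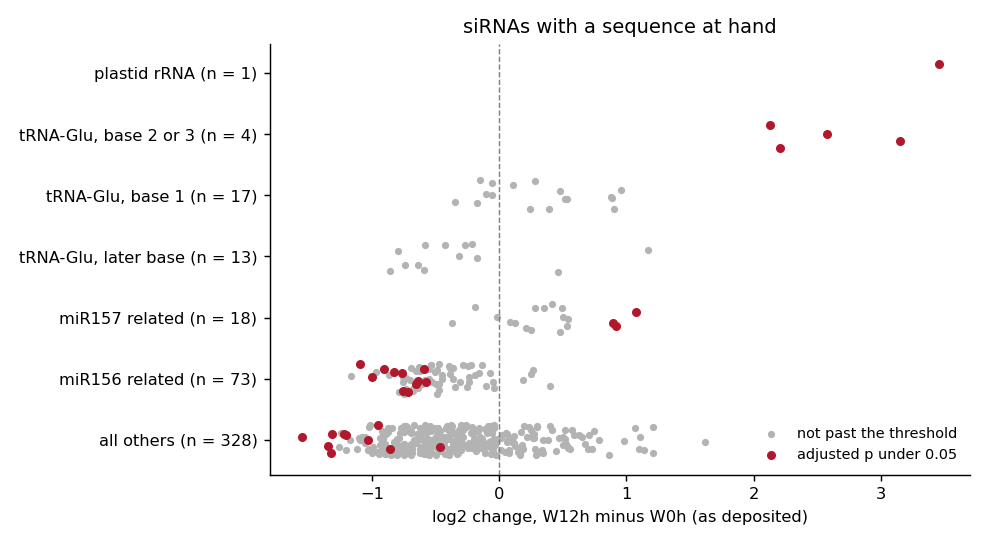
Log2 change (W12 h minus W0 h, as deposited) of the 454 tested siRNAs with a sequence, by sequence group, with siRNAs past the threshold in red. The 4 tRNA-Glu siRNAs that start at base 2 or 3 lie between 2.13 and 3.15, the 17 that start at base 1 between -0.35 and 0.96, and miR156 and miR157 relatives lie mostly on opposite sides of 0.

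A set of 6 siRNAs is given for the falls, those with the largest change among the siRNAs past the threshold that had a sequence and a mean of at least 1 RPM. SRNA20060450 lies within *TAS2* (chromosome 2, 16539749 to 16539769, plus strand), on the strand opposite to the annotated gene. It had 6.87, 8.13 and 0.398 RPM at W12 h, against 26.7, 19.7 and 0.567 RPM at W0 h (log2 change -1.21, adjusted p = 0.0427). SRNA804289, which matched 27 places, had 7.09, 4.36 and 0.114 RPM at W12 h and 17.0, 8.58 and 0.624 RPM at W0 h (log2 change -1.32, adjusted p = 0.0116). SRNA7651124 matched 6 places, the listed one in the pseudogene AT1G08740 on the strand opposite to it. It had 1.32, 0.956 and 0.0569 RPM at W12 h and 3.03, 2.01 and 0.454 RPM at W0 h (log2 change -1.32, adjusted p = 0.0249). All of them were lower at W12 h in every replicate, and none passed after centring. Of the other 3 of this set, none had an exact match in the genome. SRNA22211851 and SRNA22214898 (log2 changes -1.09 and -1.0) are variants of miR156, and the third is SRNA20855723 (-1.35).

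Further siRNAs were listed at exactly 0. There were 935 of the 4255 at W12 h and 440 at W0 h, 697 of them at W12 h only, 202 at W0 h only and 238 at both. A siRNA was at 0 either in all 3 replicates of a time point or in none. The median W0 h level of those at 0 only at W12 h was 0.411 RPM, and they made up 1.23% of the siRNA RPM of W0 h. Their lowest replicate had a median of 4 reads, against 6 for siRNAs listed above 0 at both time points. The lists therefore differ by low siRNAs in the main, and a 0 cannot be read as absence of reads. SRNA12022398, again of tRNA-Glu (cgatgtcgtccagcggttaggata), was listed at 92.9, 84.2 and 0.284 RPM at W12 h and at 0 at W0 h. It had 1691, 1584 and 5 reads at W12 h and the highest mean RPM among siRNAs listed at 0 only at W0 h. SRNA12656427, SRNA15879448 and SRNA11361692 followed, with 6.98 to 45.6 RPM in replicates 1 and 2. In replicate 3 SRNA12656427 and SRNA11361692 had more reads than it, 10 and 11. Of those listed at 0 only at W12 h, SRNA22580925 had the highest mean at W0 h, with 17.7, 22.0 and 0.0567 RPM, and SRNA561609, SRNA7336926 and SRNA16430902 followed.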

How the data were processed

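sRNA levels were taken from the table of RPM values that the authors deposited. By the Methods, the authors trimmed adaptors, mapped reads to TAIR10 with Bowtie (1.0.0 in the submitters' processing notes), divided reads equal to a mature miRNA among its family, and kept sRNAs with at least 5 reads in all 3 replicates of 1 or more time points. All siRNA and phasiRNA values above 0 gave whole reads (within 0.02), whereas miRNA values did not. For siRNAs this was on a total inferred from their own values and taken as all mapped reads. For phasiRNAs it was on a 20–24 nt total inferred from the phasiRNA values. The inferred depth was 17579785 to 18822788 mapped reads per library. The header of the table calls the unit TPM. The table has 0 columns that were not assigned to a sample.

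Changes were fitted with limma 3.58.1 in R 4.3.3 (lmFit, eBayes with a trend) on log2 of RPM plus 0.1, with time point and replicate as terms, over all 18 libraries for miRNAs and phasiRNAs. siRNAs above 0 in the 15 libraries up to W12 h were fitted on those. A log2 change on this scale understates the change of low sRNAs. Every adjusted p is by the Benjamini-Hochberg method within a class, with a threshold of 0.05. For the centred values each library was first shifted to a median log2 miRNA ratio of 0 against W0 h of its replicate. The replicate was a term because the study forms fold changes within replicates. Deviations from the group means of same-numbered libraries correlated at r = 0.932, 0.945 and 0.974 over miRNAs. However, replicates 1 and 2 correlated across numbers at 0.930 and 0.921. The check thus shows the split of replicate 3 from replicates 1 and 2, and cannot show pairing within replicates 1 and 2. The script was tested on simulated data. A log2 change of 1 either way was recovered for 18 of 25 miRNAs, 1 of 7 phasiRNAs and 22 of 93 siRNAs. A log2 change of 2 was recovered for 16 of 16, 2 of 4 and 91 of 107. Of the unchanged sRNAs, 1 of 166, 0 of 47 and 5 of 2655 passed.

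miRNA families with a member past the threshold are named, with the called member of highest mean RPM, together with the 5 most abundant miRNAs, the silencing list, the phasiRNA of highest mean RPM at each locus and the 6 siRNAs past the threshold with the largest change each way among those with a sequence and a mean of at least 1 RPM. The members, lists and tests were chosen with earlier results of these data known. All 207 miRNAs, all 58 phasiRNAs and 628 siRNAs had a sequence in the supplementary tables, of which the siRNA table was at hand only in part. Placement was by exact match, which 406 of these 628 siRNAs had. The authors' own fold changes and tests were not used. Plots were made with Python 3.11.15, numpy 2.4.6, pandas 2.3.3 and matplotlib 3.10.9.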

Additional observations from a re-analysis of the deposited data

How the results depend on the processing

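Counts below are given as deposited, then centred. Without the replicate block 0 and 0 miRNAs passed (0 and 0 phasiRNAs, 0 and 0 siRNAs), against 29 and 20 (0 and 0, 153 and 70) with it, and miR163 had an adjusted p of 0.0540 and 0.0643. Leaving out 1 replicate gave 1 to 82 and 1 to 57 miRNAs, 0 to 4 and 0 to 3 phasiRNAs and 1 to 937 and 2 to 203 siRNAs. A fit on only the 6 libraries with the block gave 1 and 1 miRNAs and 11 and 51 siRNAs. The study's test, read as a one-sample Student test of the 3 within-replicate ratios, gave 0 and 0 for miRNAs and for siRNAs after adjustment. Unadjusted, as the study used it, it gave 31 and 29 miRNAs and 266 and 190 siRNAs. With each distinct sequence as 1 item, 12 and 16 miRNAs passed, and with a minimum mean of 10 RPM 27 and 9. For siRNAs, a pseudocount of 0.01 RPM gave 82 and 54, eBayes without a trend 71 and 54, centring on the siRNA median 95, edgeR 4.0.16 on recovered reads 191 and 84, and all siRNAs with zeros included 1334 and 1059. edgeR was not run for miRNAs, whose values do not give whole reads. No named sRNA that had passed turned its direction under these alternatives. The direction turned only for sRNAs that had not passed. Leaving out 1 replicate, the log2 change ran from -0.37 to 0.31 for miR168a-5p and from -0.43 to 0.28 for miR168b-5p as deposited. For miR168b-3p it ran from -0.82 to 0.036 and centred from -0.38 to 0.28, and for phasiR_57 from -2.88 to 2.35 and centred from -2.63 to 2.67. miR168a-5p was at -0.063 when scaled to all mapped reads, and miR168b-3p, centred, at 0.029 with a pseudocount of 0.01 RPM. phasiR_57 was at 1.26 and 1.59 in edgeR, and centred at 0.079 with a pseudocount of 1 RPM and 0.21 with centring on the phasiRNA median, where phasiR_24 was at 0.093. The causes of these moves were not tested. Depth limits the miRNAs listed at a few reads, such as miR163 in replicate 3 at W0 h.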
